A study of Homo sapiens with 3 samples.

Results

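PANC-1 cells carrying wild-type JMJD3 were set against PANC-1 cells carrying the empty vector, over all named genes of the array. PANC-1 is an established human cell line from a pancreatic ductal adenocarcinoma. The control line was made with the blank MSCV retroviral vector, and the compared line expressed wild-type JMJD3, with no treatment beyond that. A line with a mutant JMJD3, whose mutation the labels do not state, is shown beside them as the remaining array of the series. The labels do not say which vector carried JMJD3, whether a line was a clone or a pool, or whether protein or enzyme activity was measured. The comparison used 2 of the 3 arrays, and no line had a replicate. Every difference is therefore a difference between 2 RNA samples with no test, and no spread between samples could be estimated.

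The members were all genes read by a probe set with a single gene symbol, with the probe set brightest on average over the 3 arrays standing for the gene. Of 54613 probe sets, 41091 had 1 symbol, and these gave 19775 genes. Values below the pooled median of the arrays, log2 5.48, were raised to it, and a gene counted as measured where control or wild-type JMJD3 lay over that floor. This left 12697 measured genes. A difference is the log2 signal with wild-type JMJD3 minus the log2 signal in control, and 2 to the power of its size gives the fold. A fold against an array at the floor can only be bounded from below and is given as "at least".

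JMJD3 is the protein of KDM6B. It removes methyl groups from lysine 27 of histone H3, the mark that the Polycomb complex PRC2 writes and that PRC1 complexes bind at repressed developmental genes. Its relative KDM6A acts on the same mark, and both belong to the jumonji family of oxygen-dependent demethylases. In other tissues JMJD3 is best known from inflammatory activation and from lineage decisions during development. The array read RNA only, so no value here is a level of the histone mark.

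The probe sets for the introduced gene did not move together. For KDM6B, probe set 1556067_a_at read log2 5.53 in control, 6.73 in the wild-type line and 6.45 in the mutant line, and 1556066_at read 6.02, 6.75 and 6.51. Both were lowest in control. The brightest, 41387_r_at, read 7.60, 7.66 and 7.65, and 41386_i_at was level at 6.99 in control and wild-type. The remaining probe set, 213146_at, stayed under the floor at 5.12. The position of these probe sets relative to the introduced coding sequence was not given in the sources used here, so they check the labels only in part.

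Signals of the arrays had nearly the same distribution. The median log2 signal over all probe sets was 5.5 in control and 5.48 with wild-type JMJD3, and the sorted columns differed by at most 0.1. In 30.8% of the probe sets both arrays held the same value. Of 8 ductal and simple epithelial markers, 7 were over the floor in every array, and the adhesion gene CDH1 was under it at 4.62 in each. The intermediate filament gene VIM, a mesenchymal marker, read 13.27 in control and 13.34 with wild-type JMJD3. Acinar, endocrine and leukocyte markers were under the floor in every array, 0 of 3, 0 of 4 and 0 of 4 on the array. Endothelial markers were over it in 1 of 4 (PECAM1, 6.28 in both arrays) and fibroblast markers in 4 of 7, led by COL1A1 at 10.16 and 10.69. Of the 4 erythroid markers on the array the beta globin gene HBB was over the floor, at 7.53 in control, 10.71 in the wild-type line and 7.23 in the mutant line, 9.06-fold higher than control. The other erythroid markers, HBD, ALAS2 and SLC4A1, were under the floor in every array, and HBB differed by 0.10 at the probe set that is not shared with other transcripts. In RNA from whole cultures, fewer cells of a type and less RNA per cell cannot be told apart.

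Most genes differed little between wild-type JMJD3 and control. The middle of the 12697 differences was 0.05 on the log2 scale, the middle 50% of them ran from -0.17 to 0.31, and 49.1% of the genes lay within 0.25 of no difference. By 2-fold or more, 121 genes (0.953%) were higher and 166 (1.31%) lower with wild-type JMJD3, together 2.26%. By 1.5-fold or more, 908 (7.15%) were higher and 1153 (9.08%) lower. Counting any difference, 6906 genes (54.4%) were above control and 4349 (34.3%) below. More genes thus lay slightly above control while more of the larger differences were downward. As deposited, 11.36% of the genes differed by exactly 0 and are in neither count. With the arrays scaled to one median the share above control was 66.3%, and with quantile normalization it was 65.4%. The median difference was 0.07 in both settings. Beyond 4-fold there were 10 higher genes and 3 lower ones. For the mutant line against the same control, the 2-fold counts were 379 higher (2.98% of 12707) and 68 lower (0.535%).

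The larger differences were not confined to dim genes. Of the 2-fold differences, 83 of the 121 higher and 121 of the 166 lower genes had a signal over log2 7.59, the pooled 75th percentile, in control or wild-type. The share past 2-fold was 1.77% in the dimmest of 5 equal classes of genes, 3.58% in the second, 2.75% in the third, 2.01% in the fourth and 1.19% in the brightest. Classes used floored means, and the dimmest ran from log2 5.485 to 6.47, so the floor limits how far its genes can differ. In 16 of the higher and 15 of the lower genes the other array was at the floor, so the fold is a bound.

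**Figure D1:**
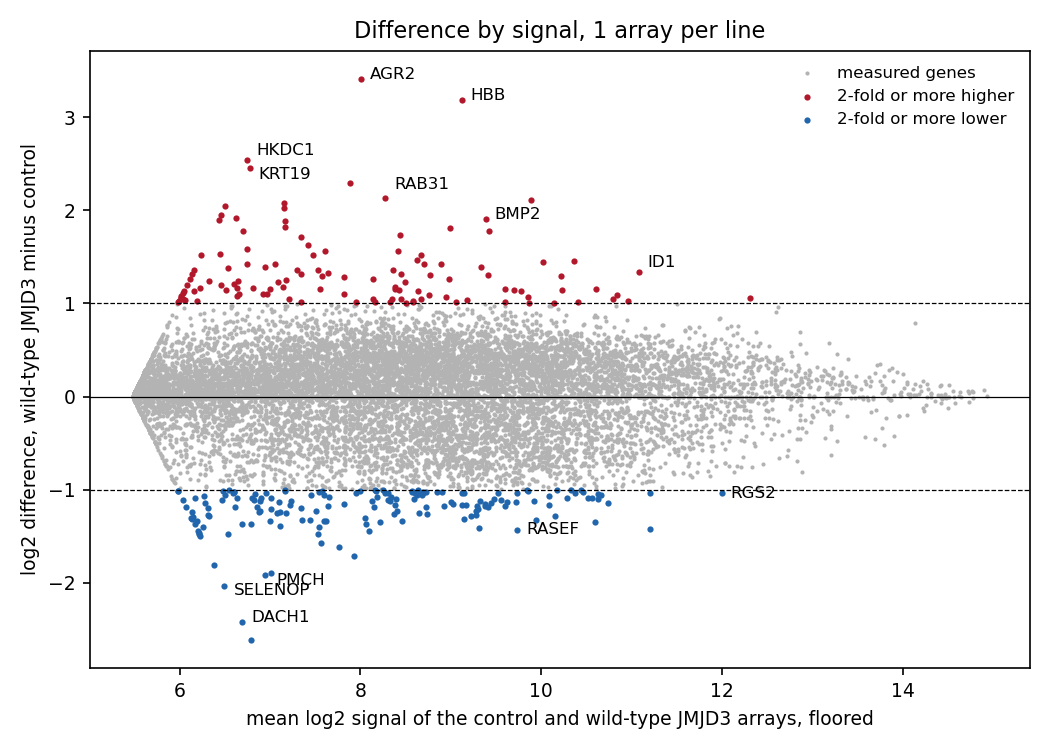
Log2 difference of wild-type JMJD3 minus control (vertical axis) against the mean floored log2 signal of those 2 arrays (horizontal axis), 1 point per measured gene. The 121 genes 2-fold or more higher are red, the 166 lower are blue, the dashed lines mark 2-fold, and the straight edges on the left come from the floor.

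The largest difference upward was in AGR2, an endoplasmic reticulum protein disulfide isomerase of secretory epithelia. It read log2 6.30 in control, 9.71 in the wild-type line and 10.56 in the mutant line, a 10.6-fold difference between wild-type and control. Both JMJD3 arrays were high, and its second probe set went the same way by 0.26 only. HKDC1, a hexokinase family member, read 4.19, 8.02 and 4.24, at least 5.82-fold higher with wild-type JMJD3. Wild-type JMJD3 alone was over the floor at that probe set. KRT19, a keratin of ductal epithelium, read 5.55, 8.0 and 7.73 (5.46-fold), and SPINT2, an inhibitor of membrane serine proteases, read 6.74, 9.03 and 8.60 (4.89-fold). Control was the low array for both. Taking the median of all probe sets of a gene, those under the floor included, the difference was 0.31 for HKDC1 and 0.47 for KRT19. KRT19 had 1 measured probe set, so its lower value is not a second reading of the gene.

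The promoter windows of AGR2 and HKDC1 are shown beside those of ID2 and ID3, because these 4 genes were well over 2-fold higher and differ in CpG content. A CpG is a C followed by a G, and promoters rich in it are the usual Polycomb targets. Each line gives the 200 bases before the annotated start from RefSeq (GRCh38.p14), on the strand of the gene, with every CG in capitals.
AGR2, chr7:16805000-16805199, minus strand: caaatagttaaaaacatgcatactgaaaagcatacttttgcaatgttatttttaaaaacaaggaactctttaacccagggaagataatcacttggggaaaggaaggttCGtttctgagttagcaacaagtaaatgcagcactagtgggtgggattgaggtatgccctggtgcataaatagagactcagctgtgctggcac
HKDC1, chr10:69220132-69220331, plus strand: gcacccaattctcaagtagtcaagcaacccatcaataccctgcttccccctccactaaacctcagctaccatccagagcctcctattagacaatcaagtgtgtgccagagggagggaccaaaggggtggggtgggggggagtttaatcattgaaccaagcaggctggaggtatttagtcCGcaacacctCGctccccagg
ID2, chr2:8681856-8682055, plus strand: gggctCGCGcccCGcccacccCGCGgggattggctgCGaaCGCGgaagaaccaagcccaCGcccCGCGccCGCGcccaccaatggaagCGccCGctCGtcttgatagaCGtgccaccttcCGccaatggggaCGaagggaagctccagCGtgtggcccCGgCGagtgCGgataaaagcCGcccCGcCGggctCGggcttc
ID3, chr1:23559502-23559701, minus strand: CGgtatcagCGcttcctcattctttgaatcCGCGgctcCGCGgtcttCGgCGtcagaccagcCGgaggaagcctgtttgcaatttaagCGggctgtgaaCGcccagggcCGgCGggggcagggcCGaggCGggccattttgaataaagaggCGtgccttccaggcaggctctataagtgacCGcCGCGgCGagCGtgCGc
The AGR2 window held 1 CG and was 40% G and C, and that of HKDC1 held 2 at 54%. ID2 held 27 at 72% and ID3 held 22 at 64%. The 4 genes were picked for this contrast, so they do not show how CG content relates to the differences.

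Over the 300-base RefSeq windows, from 250 bases before the start to 50 after it, 80 of the 121 higher genes and 130 of the 166 lower genes had an entry. A window was called CpG-rich at a G and C share of at least 0.5 and an observed over expected CG ratio of at least 0.6. Of the 2-fold higher genes 61.3% (49) were CpG-rich, against 79.2% (103) of the 2-fold lower genes, 78.1% of all 10249 measured genes with an entry and 46.9% of the whole table of 27305. Among genes with no difference it was 63.2%, near that of the higher genes, and among genes 1.5-fold to 2-fold higher 79.7%. The E-box CACGTG was in 10% of both 2-fold sets and 10.2% of measured genes. TGANTCA, the letters of the AP-1 element, was in 2.5% of the higher and 9.23% of the lower windows, and in 4.54% of measured genes and 7.76% of the table. GGCGCC was in 22.5% and 23.1%, and in 30.4% of measured genes and 19% of the table. Matches were counted on both strands, and all 3 motifs read the same on either. No overlap between motifs was removed.

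TATAAA, the letters of the TATA box, was found on either strand in 15% of the higher windows (12), 5.38% of the lower (7), 5.86% of measured genes and 12% of the table. Counting only matches that begin 40 to 20 bases before the start on the strand of the gene, there were 7 among the 80 higher genes (8.75%) and 4 among the 130 lower genes (3.08%). The share was 1.83% of measured genes and 2.55% of the table. The 7 windows of the higher genes are shown, and those of the 4 lower genes are not, so their shared direction was set by this choice. Of the 7 genes 3, ID1, CCN2 and DKK1, belong to the BMP, TGF-beta and Wnt pathways. Each is the 60 bases before the start, with TATAAA in capitals. A match of letters is a description of the window and not a measured site.
DKK1, chr10:52314221-52314280, plus strand: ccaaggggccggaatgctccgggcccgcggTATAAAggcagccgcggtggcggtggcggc
LBH, chr2:30231474-30231533, plus strand: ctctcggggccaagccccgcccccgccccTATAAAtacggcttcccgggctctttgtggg
ID1, chr20:31605229-31605288, plus strand: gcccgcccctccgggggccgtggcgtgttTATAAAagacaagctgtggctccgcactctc
CEMIP, chr15:80779310-80779369, plus strand: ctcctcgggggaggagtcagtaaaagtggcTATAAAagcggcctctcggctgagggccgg
ICAM1, chr19:10271060-10271119, plus strand: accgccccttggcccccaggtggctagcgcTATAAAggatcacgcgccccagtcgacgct
ACTC1, chr15:34795550-34795609, minus strand: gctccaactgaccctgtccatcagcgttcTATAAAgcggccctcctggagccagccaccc
CCN2, chr6:131951373-131951432, minus strand: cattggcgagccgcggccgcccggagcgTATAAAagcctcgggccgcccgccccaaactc
Besides the pathway genes these were LBH, a transcriptional cofactor of limb and heart, and CEMIP, a hyaluronan-binding protein. ICAM1 is a leukocyte adhesion receptor, and ACTC1 encodes cardiac actin. ICAM1 read 6.42 in control, 7.52 in the wild-type line and 7.36 in the mutant line (2.14-fold). LBH read 7.68, 9.04 and 8.12 (2.57-fold), and ACTC1 6.11, 7.21 and 6.00 (2.14-fold). Wild-type JMJD3 was the highest array for each of these 3.

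The BMP and TGF-beta pathways signal through receptor serine kinases to SMAD proteins, and the ID genes are among the direct targets of BMP signals. BMP2, a secreted ligand, read log2 8.43 in control, 10.34 in the wild-type line and 8.62 in the mutant line, 3.76-fold higher than control. It stood apart in the wild-type array. ID2, ID3 and ID1, which encode inhibitors of basic helix-loop-helix factors, were higher as well. ID2 read 8.09, 9.90 and 9.67 (3.51-fold), ID3 read 9.63, 11.09 and 9.69 (2.75-fold), and ID1 read 10.41, 11.75 and 10.81 (2.53-fold). Control and mutant lay close together for ID3, whereas ID2 was high in both JMJD3 arrays. ID4 was level at 5.86. Among 11 measured ligands and receptors of the BMP axis BMP2 was the only one past 2-fold. The receptors BMPR2 (8.62, 7.97 and 8.50) and ACVR2B (7.32, 6.73 and 8.09) were lower by 1.57-fold and 1.51-fold, and the median of the axis was -0.05. ACVR2B differed by 0.01 at its other measured probe set. Its antagonists and inhibitory SMADs had 3 of 11 measured members 1.5-fold higher. These were the activin inhibitor FSTL3 (7.44, 8.41 and 7.27), the BMP antagonist NOG (8.44, 9.18 and 8.91) and the feedback inhibitor SMAD7 (7.61, 8.25 and 7.61).

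Of 20 measured target genes of TGF-beta and SMAD, 16 were above control, 8 of them by 1.5-fold, and the median was 0.475 against 0.05 for all genes. TGFBI, a matrix adhesion protein, read 7.91 in control, 9.43 in the wild-type line and 9.01 in the mutant line (2.87-fold). CCN2, a matricellular growth factor, read 11.78, 12.84 and 11.95 (2.08-fold). TIMP3, an inhibitor of metalloproteinases, was 1.82-fold higher (8.52, 9.38 and 9.48). None of the 20 was lower by 1.5-fold. THBS1 was 1.62-fold higher at its brightest probe set, but differed by -0.04 without shared probe sets.

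In the Wnt pathway antagonists and receptors were both among the larger differences. DKK1, an antagonist that binds LRP6, read 8.83 in control, 10.94 in the wild-type line and 9.91 in the mutant line (4.32-fold), and its relative DKK3 read 6.93, 8.22 and 8.27 (2.45-fold). Control was the low array for both. The frizzled receptor FZD3 was 2.3-fold lower (6.91, 5.71 and 7.49) and the co-receptor LRP6 2.04-fold lower (10.04, 9.01 and 10.11), with wild-type the low array. FZD10, another frizzled receptor, was 2.68-fold higher (8.18, 9.60 and 9.50). Over the 23 measured ligands, receptors and antagonists of the list, which holds DKK1 but not FZD10, 15 were above control around a median of 0.19. Taking the median of all its probe sets, FZD3 differed by -0.36 and LRP6 by -0.24.

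Notch is a receptor cleaved on contact with ligand-bearing neighbours. The inhibitory ligand DLL3 was 2.35-fold higher (7.88 in control, 9.11 with wild-type JMJD3, 9.0 with the mutant) and the ubiquitin ligase DTX4 2.07-fold (7.62, 8.67 and 8.40). RBPJ, the DNA-binding factor of the pathway, was 1.61-fold lower (9.85, 9.16 and 9.87). With the median over its probe sets DLL3 differed by 0.2. The list had 16 of 24 measured members above control, with a median of 0.2. In the insulin and IGF axis GRB14, an adaptor that inhibits the insulin receptor, was 3.71-fold lower (7.96, 6.07 and 7.66), and the binding proteins IGFBP6 (8.16, 9.14 and 8.16) and IGFBP4 (5.90, 6.83 and 6.46) were 1.97-fold and 1.91-fold higher. The median of its 23 measured members was 0.09.

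Among inflammatory and immune genes the members of one pathway also parted. REL, a subunit of NF-kB, was 2.77-fold lower (8.27 in control, 6.80 with wild-type JMJD3, 8.33 with the mutant), while RELA, another subunit, was 1.56-fold higher (8.91, 9.55 and 8.99). The 19 measured subunits and regulators had 3 members 1.5-fold higher and 4 lower. Of 27 measured interferon-stimulated genes IFI35 was 2.62-fold higher (8.64, 10.03 and 9.14) and the ISG15 ligase HERC5 2.16-fold lower (7.02, 5.91 and 8.15). By 1.5-fold 5 of the 27 were higher, IFITM1, IFITM2 and IFITM3 among them, and 1 was lower, with a median of 0.02. In the TNF family the death receptor TNFRSF21 read 6.83, 8.39 and 8.42 (2.95-fold) and the ligand CD70 read 6.55, 7.80 and 6.98 (2.38-fold). The complement component C3 was 3.32-fold higher (7.57, 9.30 and 9.31), and C5 was at least 3.51-fold lower (7.29, 4.52 and 7.96). PROS1, an anticoagulant cofactor, was 2.23-fold lower (9.75, 8.59 and 10.41).

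The cyclooxygenase isoforms of prostaglandin synthesis went different ways. PTGS1, the constitutive cyclooxygenase, read 12.14 in control, 13.05 in the wild-type line and 11.66 in the mutant line (1.88-fold higher), and PTGS2, the inducible one, read 8.97, 8.13 and 10.09 (1.79-fold lower). PLA2G4A, the phospholipase that frees arachidonic acid, was 2.43-fold lower (9.86, 8.58 and 10.75). PTGER4, a receptor for prostaglandin E, was 1.92-fold lower (9.29, 8.35 and 8.90). ALOX5, the first enzyme of leukotriene synthesis, was at least 2.57-fold higher (5.41, 6.84 and 8.54). Wild-type JMJD3 was the low array for PTGS2, PLA2G4A and PTGER4. Over the 14 measured enzymes and receptors 5 were above and 6 below control, and the median was 0.00.

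The largest downward difference was in DPEP2NB, which read log2 8.09 in control, 5.32 in the wild-type line and 4.88 in the mutant line (at least 6.11-fold lower). Both JMJD3 arrays were under the floor. PMCH, a neuropeptide precursor, read 7.91 in control, 5.99 in the wild-type line and 6.48 in the mutant line (3.78-fold lower). ABCA5, a lipid transporter, read 8.78, 7.07 and 8.61 (3.27-fold), and B3GNT5, which starts lacto-series glycolipids, read 8.57, 6.96 and 8.98 (3.05-fold). The last 2 were low in the wild-type array alone. DACH1, a transcriptional cofactor, read 7.90, 4.80 and 7.13 (at least 5.35-fold lower), and SELENOP, the secreted selenium carrier, 7.51, 5.37 and 8.84 (at least 4.08-fold). DACH1 was under the floor in the wild-type array only, and SELENOP was highest with the mutant. Among 55 measured glycosyltransferases B3GNT5, the N-glycan branching enzyme MGAT4A (8.82, 7.38 and 7.85, 2.71-fold) and GALNT12 (6.79, 5.29 and 7.74, at least 2.48-fold) were lower, and GALNT2 was 2.0-fold higher (9.64, 10.64 and 9.99). GALNT12 and GALNT2 both start mucin-type O-glycans. GALNT2 was read by a shared probe set, and its difference was 0.26 with that set dropped.

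Further genes were more than 2-fold higher with wild-type JMJD3. MALL, a raft protein, read 6.11 in control, 8.19 in the wild-type line and 7.55 in the mutant line (4.23-fold), MAGED1, an adaptor of the melanoma antigen family, 6.14, 8.16 and 8.05 (4.06-fold), and SLC7A7, a cationic amino acid exchanger, 6.26, 8.08 and 7.23 (3.53-fold). Control was the low array for all 3. ADGRG1, an adhesion G protein-coupled receptor, was 2.95-fold higher (7.64, 9.20 and 8.64), and CHST2, a sulfotransferase of glycans, 2.68-fold (7.99, 9.41 and 9.08). PLA1A, a phosphatidylserine phospholipase, read 6.25, 7.64 and 5.62 (2.62-fold), and ELAPOR1, an endosomal protein of secretory cells, 6.34, 7.76 and 6.15 (2.68-fold). For these 2 the mutant lay at or under the control level. TNNC1, the slow and cardiac troponin C, read 6.61, 8.24 and 5.47 (3.1-fold higher). The mutant array was the lowest.

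Between the arrays, 259 genes were over the floor with wild-type JMJD3 only and 126 in control only. CES1, a carboxylesterase, read 5.18 in control, 7.38 in the wild-type line and 6.61 in the mutant line (at least 3.73-fold), and NNMT, nicotinamide N-methyltransferase, 5.33, 7.0 and 7.45 (at least 2.87-fold). SPINK1, the pancreatic secretory trypsin inhibitor, read 4.46, 6.74 and 4.75 (at least 2.39-fold) and was over the floor with wild-type JMJD3 alone. On the other side were FGF9, a secreted growth factor (6.95, 5.31 and 7.42, at least 2.77-fold lower), the sterol exporter ABCA1 (6.59, 4.79 and 8.07, at least 2.16-fold) and the heparin-binding growth factor PTN (6.49, 5.08 and 7.49, at least 2.01-fold). The mutant was the highest array for these 3. With the floor at the 60th percentile SPINK1 differed by 0.57, FGF9 by -0.78, ABCA1 by -0.42 and PTN by -0.32, all under 2-fold.

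Where a gene had several measured probe sets, they gave a second reading of the same RNA, which is not a replicate. Of the 121 higher genes 49 had 82 other measured probe sets, of which 91.5% were above control and 23.2% by 2-fold. Of the 166 lower genes 90 had 173 others, of which 89.6% were below control and 25.4% by 2-fold. Direction was thus shared far more often than size. Over 3027 genes with at least a pair of bright probe sets, the median range between a gene's differences was 0.2, and the 95th percentile was 0.84. All measured probe sets passed 2-fold in 6 higher genes and 15 lower ones. The higher were BMP2, ID2, RAB31, a GTPase of endosomal traffic, PTGFRN, a membrane partner of tetraspanins, SOX9, a transcription factor of pancreatic ducts, and MGLL, a lipase of monoglycerides.

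RAB31 read log2 7.21 in control, 9.34 in the wild-type line and 9.42 in the mutant line, and its 3 probe sets differed by 2.13 to 2.20. SOX9 read 5.81, 7.59 and 8.40 (3.43-fold), and 5.2, 6.59 and 7.23 at its other probe set. Both genes were as high or higher with the mutant. PTGFRN read 8.53, 10.31 and 9.75 (3.43-fold) at its brightest probe set, and 7.82, 9.66 and 7.35 at the other, so the mutant lay above control at one and below it at the other. On the lower side KRCC1 read 8.28, 6.95 and 9.06 (2.51-fold), and its 3 probe sets differed by -1.23 to -1.41. PLOD2, a collagen lysyl hydroxylase, read 9.91, 8.70 and 9.87 (2.31-fold), and FKBP14, a collagen prolyl isomerase of the endoplasmic reticulum, read 8.94, 7.84 and 9.60 (2.14-fold). Wild-type JMJD3 was the low array in every probe set of these 3. RASEF, a RAB-like GTPase, read 10.45, 9.02 and 9.68 (2.69-fold), and RETREG1, a receptor for autophagy of the endoplasmic reticulum, 10.79, 9.51 and 9.92 (2.43-fold). The others were ALCAM, DACH1, FAM111B, FNBP4, IFT80, PSMA3-AS1, PWAR6, SMC2, SV2B and TTF1.

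**Figure D2:**
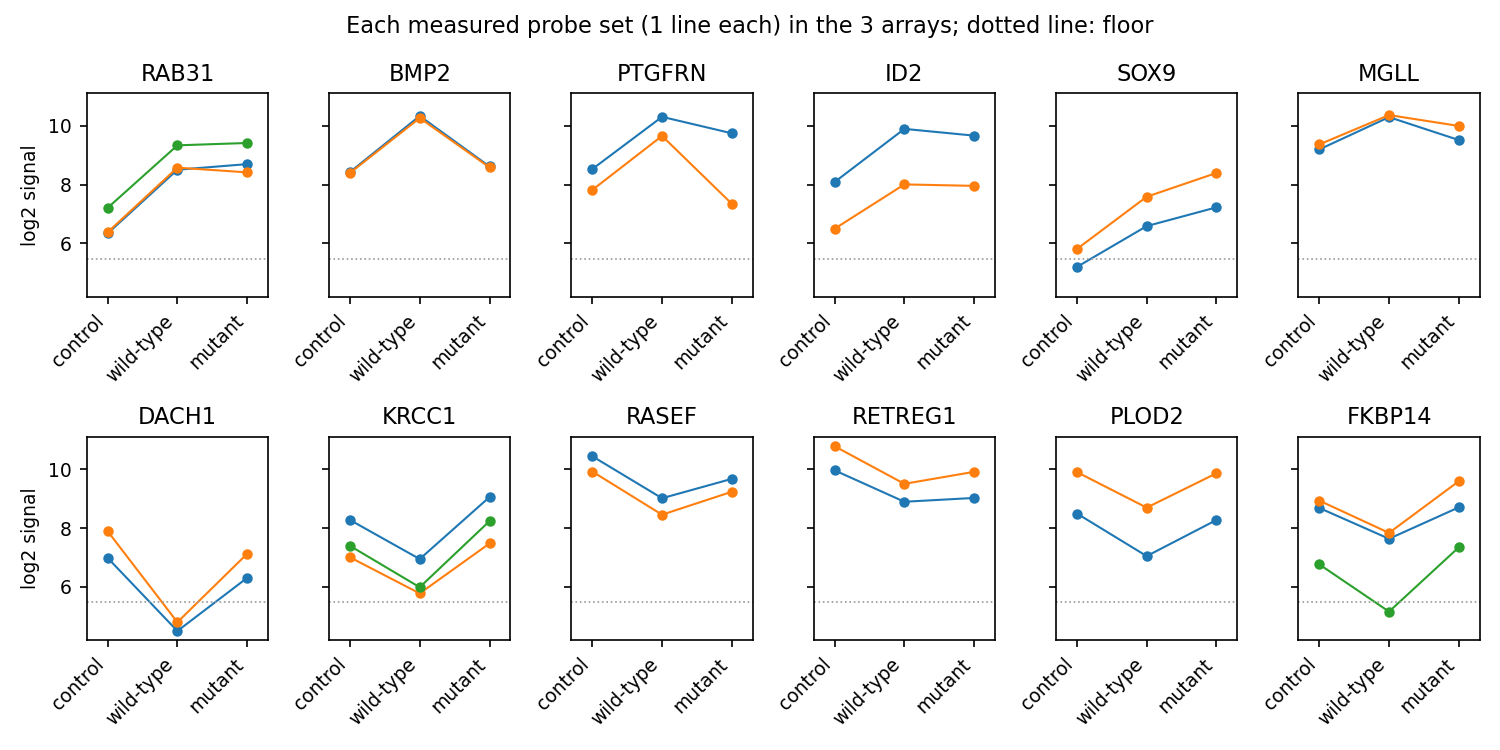
Log2 signal (vertical axis) of every measured probe set, 1 coloured line each, in the control, wild-type JMJD3 and mutant JMJD3 arrays for 6 higher and 6 lower genes whose probe sets all passed 2-fold between control and wild-type. The lines of a gene go the same way between control and wild-type, which the choice of genes sets. They are not parallel in every gene. On floored values DACH1 differed by -2.42 and -1.51, and SOX9 by 1.78 and 1.11. The dotted line is the floor at 5.48.

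Beyond single genes, 154 groupings were looked at, 59 lists of pathways and complexes and 95 families defined by gene symbols. Of the 146 with at least 5 measured members, the median difference was above 0 in 103, below 0 in 20 and 0 in 23. It was 0.25 or more in 21 and -0.25 or less in 4. The groups described were picked after their values had been seen, so their direction is a description, to be read against the shares over all genes given above. Members of a group share an array and are not replicates.

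Genes of the mitochondrial energy and protein-making machinery lay slightly above control in most members. Of 75 mitochondrial ribosomal proteins, all measured, 66 were above control and 6 below, with a median of 0.33. By 1.5-fold 7 were higher and 0 lower, led by MRPL57 (log2 10.78 in control, 11.52 with wild-type JMJD3, 11.20 with the mutant), MRPL2 (7.31, 8.01 and 7.10) and MRPL49 (10.10, 10.78 and 9.89). None reached 2-fold. Complex I, which oxidises NADH, had 30 of 32 subunits above control and a median of 0.27. NDUFV3 was 1.71-fold higher (9.60, 10.37 and 9.30), and NDUFA5 was 1.33-fold lower (11.49, 11.08 and 11.89). Complexes III and IV had 17 of 20 above with a median of 0.215, including CYC1 (11.47, 12.13 and 11.33) and UQCRC1 (10.80, 11.45 and 10.73), while the electron carrier CYCS was 1.38-fold lower (13.06, 12.60 and 13.19). ATP synthase had 14 of 17 above and 0 below, with a median of 0.17. The cytosolic ribosomal proteins behaved otherwise, with 38 of 57 above, a median of 0.03 and none past 1.5-fold either way. In these bright genes the largest difference was that of RPL3, 1.19-fold.

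Enzymes that charge transfer RNAs were divided. Over 32 measured, 21 were above and 11 below, with a median of 0.32. The mitochondrial LARS2 (9.09 in control, 9.93 with wild-type JMJD3, 8.51 with the mutant), EARS2 (7.96, 8.61 and 8.36), VARS2 (9.41, 10.05 and 8.90) and FARS2 (9.08, 9.71 and 9.31) were 1.55-fold to 1.79-fold higher. The cytosolic EPRS1 (11.24, 10.51 and 11.21) and IARS1 (12.22, 11.53 and 12.21) were 1.66-fold and 1.61-fold lower, and the cytosolic FARSA was 1.58-fold higher. The tricarboxylic acid cycle and pyruvate entry had 21 of 34 above around a median of 0.235, or 0.00 once shared probe sets were dropped. Its inhibitory kinases PDK3 (9.21, 8.15 and 9.41) and PDK1 (10.10, 9.34 and 9.80) were 2.08-fold and 1.69-fold lower, PDK3 at its brightest probe set only. Fatty acid oxidation had 18 of 25 above and a median of 0.25. Its coactivator PPARGC1A was 1.78-fold lower (7.71, 6.88 and 8.75), and the peroxisomal oxidase ACOX3 was 1.89-fold higher (6.45, 7.37 and 6.99). In glycolysis 17 of 25 were above with a median of 0.2, and after HKDC1 the largest difference was in the enolase ENO3 (9.70, 10.52 and 9.75, 1.77-fold).

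Genes of amino acid supply that are known targets of ATF4, the factor of the amino acid response, had a median of 0.275. Of 38 measured, 24 were above control (63.2%) and 12 below, and by 1.5-fold 6 were higher and 2 lower. Over all genes the share above control was 54.4%, or 66.3% with the arrays scaled to one median. ASNS, asparagine synthetase, read 8.88 in control, 9.87 in the wild-type line and 11.09 in the mutant line (1.99-fold). CTH, which makes cysteine, read 11.01, 12 and 11.54 (1.99-fold), and the pseudokinase TRIB3 8.71, 9.65 and 9.07 (1.92-fold). Control was the low array in all 3. The unfolded protein response had a median of 0.00 over 27, with the sensor ERN1 2.23-fold higher (6.23, 7.39 and 7.28) and EDEM3, a mannosidase of misfolded glycoproteins, 1.95-fold lower (8.24, 7.28 and 8.37). Cholesterol synthesis was near level (median 0.05 over 19), but HMGCS1, its HMG-CoA synthase (10.83, 9.83 and 9.57), and the sterol carrier STARD4 (9.21, 8.17 and 8.84) were 2.0-fold and 2.06-fold lower.

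DNA repair and mitosis genes lay mostly below control. Of 38 measured DNA repair genes 28 were below and 9 above, with a median of -0.27, and 12 were lower by 1.5-fold against 1 higher. The RecQ helicases WRN (log2 8.50 in control, 7.53 with wild-type JMJD3, 8.34 with the mutant) and BLM (9.61, 8.74 and 9.50) were 1.96-fold and 1.83-fold lower. The nuclease ERCC5 read 9.07, 8.16 and 9.14, the break-end nuclease MRE11 9.73, 8.90 and 9.96, and the checkpoint kinase ATR 10.55, 9.73 and 10.44. Wild-type JMJD3 was the low array in all 5, and none of the list passed 2-fold. Mitosis genes had 37 of 57 below and a median of -0.24, with 20 lower by 1.5-fold and 1 higher. The condensin SMC2 was 2.22-fold lower (9.95, 8.80 and 9.36), the spindle motor KIF11 1.92-fold (10.62, 9.68 and 10.68), the condensin subunit NCAPG 1.89-fold (10.24, 9.32 and 10.03) and the kinetochore protein CENPF 1.85-fold (10.83, 9.94 and 10.50). DNA replication genes, in contrast, were evenly split, 20 above and 22 below of 44, around -0.005. POLA1, the catalytic subunit of the priming polymerase, was 1.91-fold lower (10.25, 9.32 and 10.06), and RPA2, a single-strand binding subunit, 1.64-fold higher (9.33, 10.04 and 9.53).

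Cyclins, their kinases and the pocket proteins had a median of 0.01 over 28. The pocket proteins RBL1 (8.47 in control, 7.44 with wild-type JMJD3, 8.59 with the mutant) and RB1 (10.93, 10.13 and 11.04), which hold back E2F factors, were 2.04-fold and 1.74-fold lower. CDK6 was 1.66-fold lower (11.50, 10.77 and 11.03) and the cyclin CCND3 1.71-fold higher (10.96, 11.73 and 10.25). Kinesins had 18 of 32 below control and 8 lower by 1.5-fold, with a median of -0.1. Of 12 tumour suppressor genes of pancreatic cancer, 7 were below with a median of -0.29, including KDM6A, RB1 and the receptor TGFBR1 (10.89, 10.14 and 10.55, 1.68-fold lower). Taking the median of all probe sets of each gene, that group's median was -0.03.

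Deubiquitinases of the USP, OTU and UCHL families were lower in 31 of 50 measured members, 12 by 1.5-fold and 0 higher by as much, with a median of -0.27. USP53 read 7.67 in control, 6.67 in the wild-type line and 7.77 in the mutant line (2.0-fold), USP31 8.72, 7.73 and 8.95 (1.99-fold), and USP47 12.29, 11.44 and 11.80 (1.8-fold). USP1, which acts in DNA repair, was 1.75-fold lower (11.53, 10.72 and 11.47). Zinc finger genes named ZNF, mostly KRAB repressors and other DNA-binding factors, numbered 319 measured of 466 on the array. Of these 178 were below and 110 above, with a median of -0.12, and 70 were lower by 1.5-fold against 14 higher. By 2-fold 9 were lower and 1 higher. ZNF721 was 2.55-fold lower (11.27, 9.92 and 10.80), ZNF700 2.5-fold (8.10, 6.78 and 7.99) and ZNF782 2.27-fold (7.45, 6.27 and 7.18), and ZNF467 was 2.57-fold higher (6.85, 8.21 and 8.33). Wild-type JMJD3 was the low array for the 3 lower ones. The ZNF721 probe set can be shared with other transcripts, and the difference was -0.55 with it dropped. ZBTB and BTB genes had 13 of 69 lower by 1.5-fold and 2 higher, with ZBTB11 2.41-fold lower (9.91, 8.64 and 10.35).

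Chaperones differed by family. Of 16 measured HSP70, HSP90, HSP60 and HSP110 genes 12 were below control with a median of -0.29. The endoplasmic HSP90B1 (9.70 in control, 8.99 with wild-type JMJD3, 9.70 with the mutant) was 1.64-fold lower, the cytosolic HSP90AA1 (14.05, 13.53 and 13.92) 1.43-fold and the mitochondrial HSPD1 (14.11, 13.69 and 14.00) 1.34-fold. HSPA2, a testis-enriched HSP70, went the other way at 2.77-fold higher (7.89, 9.36 and 9.32). Among 6 measured small heat shock proteins CRYAB (6.49, 8.20 and 6.15) was 3.27-fold, HSPB8 (9.30, 10.74 and 10.45) 2.71-fold and HSPB7 (6.62, 7.43 and 6.73) 1.75-fold higher, while HSPB1 read 10.70 and 10.80. For HSPB8 the shared probe set was the brightest, and the other one differed by 0.06.

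Actin regulators, tetraspanins, annexins and S100 genes lay mostly above control, unlike the kinesins. Actin and its regulators had 42 of 54 measured members above, 8 higher by 1.5-fold and 2 lower, with a median of 0.24. ARPC3, a subunit of the actin-nucleating complex, read 9.58 in control, 10.87 in the wild-type line and 10.06 in the mutant line (2.45-fold). The severing protein GSN read 9.32, 10.39 and 9.66 (2.1-fold), and the coronin CORO1B 9.60, 10.57 and 9.65 (1.96-fold). RDX, which links actin to the membrane, was 1.67-fold lower (12, 11.26 and 12.23). Tetraspanins, membrane organisers, had 19 of 23 above and 0 below, with a median of 0.37. TSPAN31 was 2.01-fold higher (9.10, 10.11 and 9.84), and the exosome markers CD81 (10.45, 11.05 and 10.67) and CD9 (11.47, 12.02 and 11.61) were 1.52-fold and 1.46-fold higher. The calcium-dependent annexins had 8 of 9 above, with ANXA3 1.72-fold higher (9.51, 10.29 and 8.95) and ANXA1 alone lower, 1.75-fold (11.87, 11.06 and 12.09). S100 genes had 11 of 13 above and a median of 0.31, with S100A11 1.6-fold higher (9.74, 10.42 and 9.60).

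Of 44 keratins on the array 10 were measured and 9 were above control, 3 by 2-fold. Beside KRT19 these were KRT80 (7.79 in control, 8.97 with wild-type JMJD3, 7.07 with the mutant, 2.27-fold) and KRT7, a ductal keratin (9.66, 10.80 and 9.16, 2.2-fold). KRT8, another keratin of simple epithelia, was near level at 11.76 and 11.97, and the group median was 0.125. KRT7 too was read by a shared probe set, with a difference of 0.21 once it was dropped. Epithelial junction genes were mixed, 15 of 28 above with a median of 0.05. After SPINT2 and MAL2 the highest was the membrane protease ST14 (6.94, 7.83 and 6.84, 1.85-fold), and DSP, the desmosome plaque protein, was 1.68-fold lower (12.45, 11.70 and 12.39). Among 7 measured laminin chains LAMA1 (8.18, 9.12 and 6.62), LAMB3 (7.31, 8.22 and 6.99) and LAMB2 (7.82, 8.56 and 7.35) were 1.92-fold, 1.88-fold and 1.67-fold higher, and LAMB1 (11.10, 10.41 and 11.24) was 1.61-fold lower. Of 34 pancreatic lineage regulators named, 10 were measured, 6 above control and 3 below, with a median of 0.08. By 1.5-fold 2 were higher and 1 was lower. SOX9, the highest, was followed by GATA6, a factor of endodermal identity (8.04, 8.93 and 8.49, 1.85-fold higher).

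Enzymes that handle electrophiles and aldehydes were mostly above control too. Over all measured genes the share above control was 54.4% as deposited, and 66.3% with the arrays scaled to one median. Group shares were not taken again after scaling. All 7 measured aldo-keto reductases were above, of 10 on the array, with a median of 0.53, led by AKR1C2 (log2 7.14 in control, 7.90 with wild-type JMJD3, 9.57 with the mutant) and AKR1C3 (11.69, 12.43 and 12.62), 1.69-fold and 1.67-fold. These near-identical genes can share probes. Of 19 glutathione transferases 14 were above and 3 below, with a median of 0.44. GSTO2 was 2.07-fold higher (5.51, 6.56 and 7.22) and MGST3 1.95-fold (12.14, 13.10 and 12.38). Aldehyde dehydrogenases had 10 of 15 above (66.7%) and a median of 0.35. ALDH9A1 was 1.62-fold higher (10.56, 11.26 and 10.81) and ALDH3A2 1.64-fold lower (10.84, 10.13 and 10.82). Lysosomal enzymes and autophagy genes had 31 of 47 above (66%) and a median of 0.2. The protease CTSB was 1.83-fold higher (9.84, 10.71 and 10.48), the sialidase NEU1 1.79-fold (8.15, 8.99 and 7.32) and their regulator TFEB 1.64-fold (6.64, 7.35 and 7.51). Among 25 selenoproteins and ferroptosis genes SELENOM was 2.04-fold higher (8.07, 9.10 and 8.44), in contrast to SELENOP. Dual-specificity phosphatases had a median of 0.31 over 19, with DUSP2 1.46-fold higher (9.10, 9.65 and 11.13).

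Genes that write, read or erase chromatin marks showed no common direction. The demethylase KDM6A read 7.57 in control, 6.75 in the wild-type line and 7.34 in the mutant line (1.77-fold lower), and near the floor at its other probe set. Of 12 PRC2 subunits and partners 5 were above and 6 below, around -0.05. SUZ12, a core subunit, was 1.65-fold lower (11.25, 10.53 and 11.41), AEBP2 1.46-fold (10.51, 9.96 and 10.96), MTF2 1.45-fold (9.29, 8.75 and 9.19) and the methyltransferase EZH2 1.34-fold (10.15, 9.73 and 10.07). RBBP4 was 1.21-fold higher (10.93, 11.21 and 11.29). The PRC1 list had 6 of 15 above and 8 below, with PHC3 1.71-fold lower (10.09, 9.32 and 10.31). PCGF5 was 1.59-fold lower at its brightest probe set but 0.71 higher with the median over its probe sets. Of 20 measured HOX genes, classical Polycomb targets, 18 were above control and 1 below, with a median of 0.34, led by HOXC13 (7.46, 8.44 and 8.31, 1.97-fold) and HOXB6 (5.78, 6.67 and 6.92, 1.85-fold). In the mutant line against the same control the HOX median was 0.225.

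Several single chromatin genes differed by 1.5-fold or more. HDAC9, a class IIa deacetylase, was 2.64-fold lower (6.96 in control, 5.56 with wild-type JMJD3, 7.46 with the mutant), while 12 of 17 measured deacetylases and sirtuins were above control with a median of 0.29, or 0.12 without shared probe sets, and HDAC8 was 1.6-fold higher (8.13, 8.81 and 7.56). The acetyltransferase KAT6B was 2.06-fold lower (9.67, 8.63 and 8.97) and its relative KAT6A 1.69-fold (10.09, 9.33 and 9.94), whereas KAT5 was 1.6-fold higher (8.48, 9.16 and 8.22). The median of 11 acetyltransferases was -0.15. In SWI/SNF, a nucleosome remodeller, PHF10 was 2.08-fold lower (11.19, 10.13 and 11.08) and the bromodomain subunit BRD7 1.67-fold (10.15, 9.41 and 10.10), around a median of 0.07 over 18. Among 14 genes of the H3K4 methyltransferase complexes MEN1 was 1.73-fold higher (8.33, 9.12 and 8.45), and KMT2C (10.57, 9.81 and 10.36) and KMT2A (9.79, 9.07 and 9.97) were 1.69-fold and 1.65-fold lower. Cilium genes had 24 above and 24 below of 52, with ARL6 (6.94, 5.40 and 7.84), IFT80 (10.03, 8.93 and 10.71) and BBS7 (6.49, 5.40 and 7.16) lower by at least 2.75-fold, 2.14-fold and at least 2.01-fold. For KAT6B (-0.44) and PHF10 (-0.74) the median of all probe sets was under 2-fold. For IFT80 it was -0.54 with the probe sets under the floor counted in, although both measured ones passed 2-fold.

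**Figure D3:**
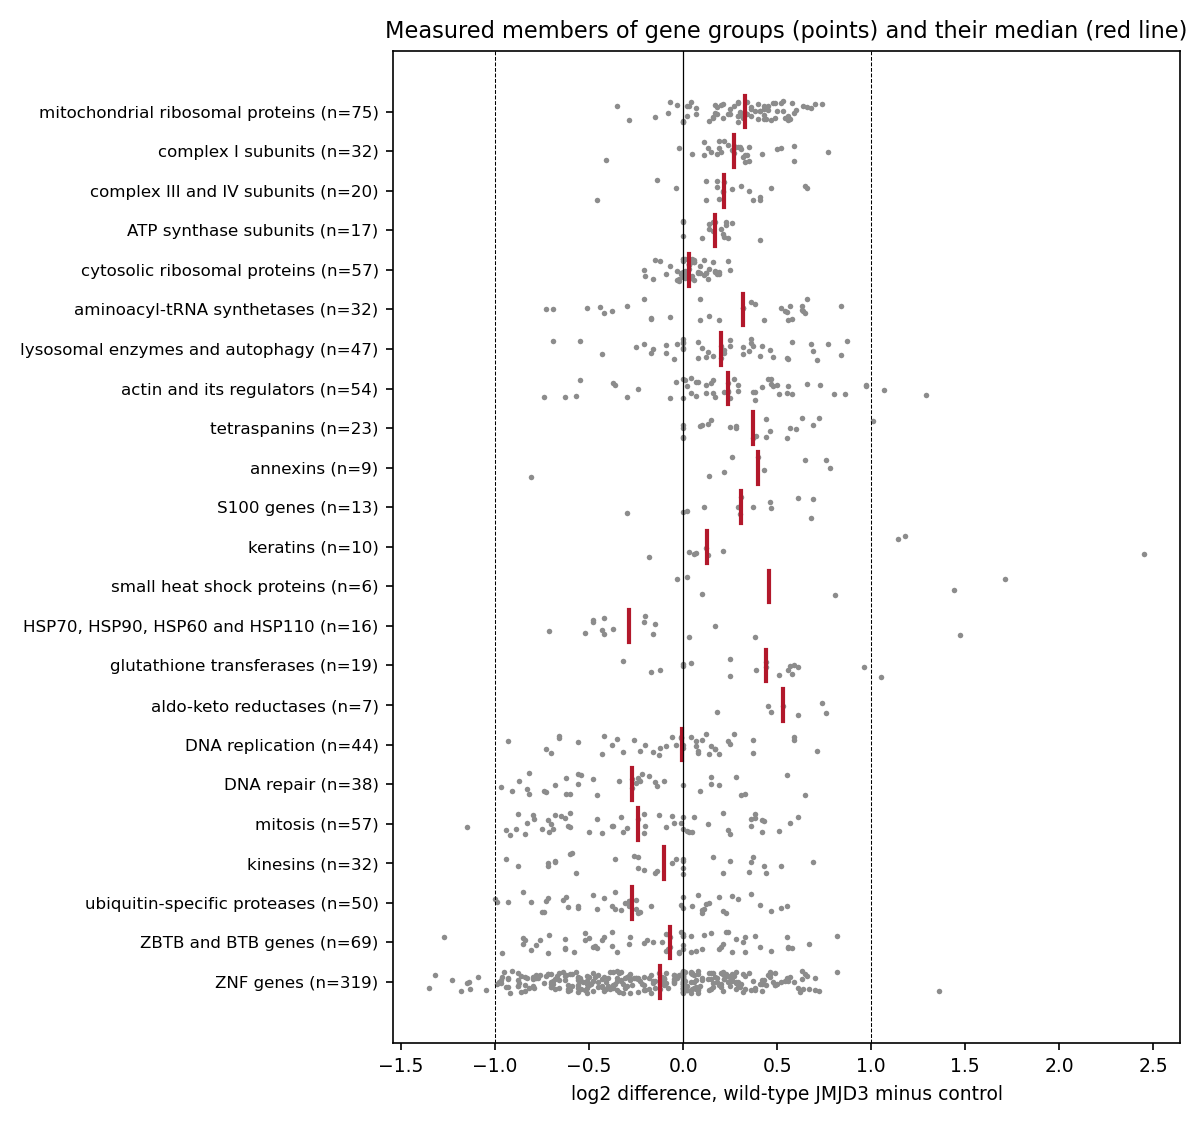
Log2 difference of wild-type JMJD3 minus control (horizontal axis) for every measured member of 23 gene groups, 1 grey point per gene, with the group median as a red line and dashed lines at 2-fold. Mitochondrial ribosomal proteins lie mostly right of 0 (median 0.33), cytosolic ones around it (0.03), and DNA repair, mitosis and deubiquitinase genes mostly left of it (-0.27, -0.24 and -0.27).

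The direction of the difference followed the genomic span of a gene, the distance between its ends in the RefSeq annotation, introns included. A span was found for 12688 of the 12697 measured genes. Its median was 28.5 kb for the 2-fold higher genes, 17.1 kb for those 1.5-fold to 2-fold higher and 19.5 kb for those above control by less. It was 45.3 kb for genes below control by under 1.5-fold, 62.6 kb for those 1.5-fold to 2-fold lower and 65.7 kb for the 2-fold lower genes, against 27.6 kb for all. Lower genes were thus the longer ones at each size of difference.

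Split into 4 classes of 3172 genes by span, 71% were above control in the shortest class (up to 10.7 kb), 61.4% in the second, 48.8% in the third and 36.4% in the longest (67.1 kb and more). The median difference was 0.18, 0.11, 0.00 and -0.07. Counts from 1.5-fold turned over as well, with 330 higher and 59 lower genes in the shortest class and 163 higher and 542 lower in the longest. From 2-fold they were 38 and 12 in the shortest, and 31 and 82 in the longest. In the mutant line against the same control the median was 0.00 in every class. Its shares above control and fold counts by class were not computed, so whether the mutant followed span is not shown. With wild-type JMJD3 the third class also had a median of 0.00, with 183 genes higher and 387 lower by 1.5-fold. What sets the order by span with wild-type JMJD3 was not tested.

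The gene groups differed in span too. Mitochondrial ribosomal proteins had a median span of 8.67 kb and complex I subunits 12.3 kb, while deubiquitinases had 64.4 kb and DNA repair genes 49.4 kb. When each member was replaced by the median of all measured genes in its span class, the middle value was 0.18 for mitochondrial ribosomal proteins (their own median 0.33) and 0.11 for complex I (0.27). It was 0.18 for complexes III and IV (0.215), ATP synthase (0.17), keratins (0.125) and cytosolic ribosomal proteins (0.03). HOX genes (0.34) had the same value, 0.18, with 16 of 20 in the shortest class. It was 0.00 for DNA repair (-0.27), deubiquitinases (-0.27), mitosis (-0.24) and actin regulators (0.24) and 0.11 for ZNF genes (-0.12). Some groups thus lay away from genes of like span and others, such as ATP synthase, close to them, with no test of the gap. How far span contributes to any group was not tested.

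**Figure D4:**
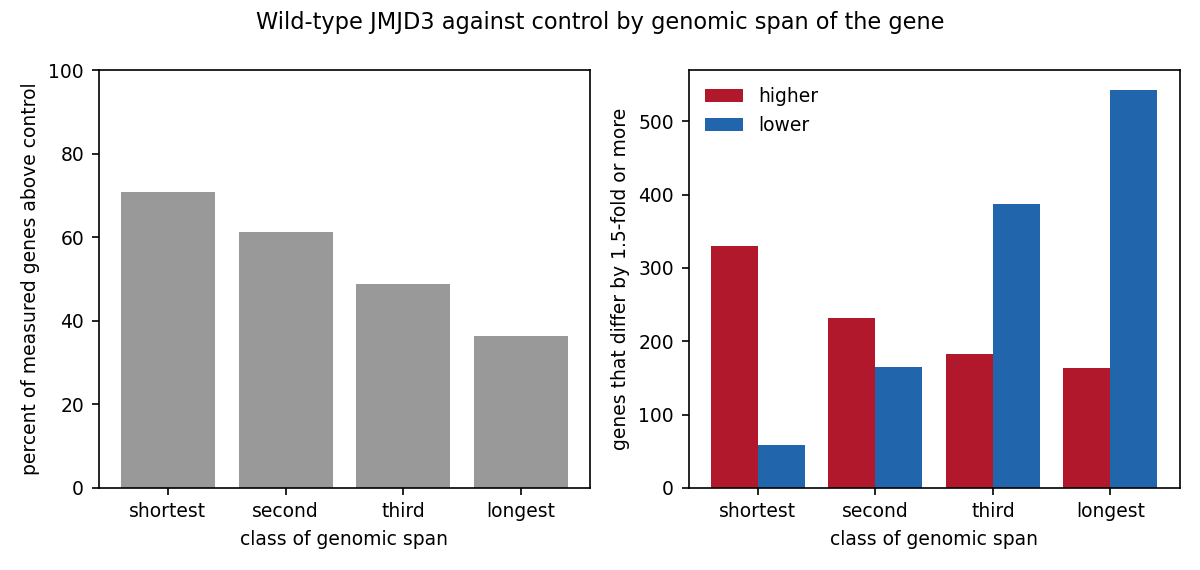
Measured genes in 4 classes of genomic span, each of 3172 genes (horizontal axis), with the percent above control at the left and the number 1.5-fold or more higher (red) or lower (blue) at the right. The percent above control goes from 71 to 36.4 from the shortest to the longest class, and the lower genes outnumber the higher ones in the longest class, 542 to 163.

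Some measured genes that follow each other on a chromosome differed the same way. Genes that were not measured were passed over and no limit was set on distance, so members of a run need not lie close together. In the order of the RefSeq gene table, 49 runs held at least 3 consecutive measured genes that all differed by 1.5-fold or more one way, 39 of them lower and 10 higher, with 166 genes in all. The longest run had 7 lower genes, TPR, ODR4, PTGS2, PLA2G4A, RGS2, UCHL5 and RO60. RGS2, a regulator of G protein signals, read log2 12.52 in control, 11.48 in the wild-type line and 12.80 in the mutant line (2.06-fold), and TPR, a nuclear pore basket protein, 10.50, 9.54 and 10.30 (1.95-fold). PTGS2 and PLA2G4A, adjacent genes of prostaglandin synthesis, both belong to it. Over all measured genes 9.08% were lower and 7.15% higher by 1.5-fold or more. How many runs these shares alone would give was not computed, and no test of the number of runs was made.

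A run of 5 lower genes held AHR, SNX13, HDAC9, TWIST1 and POLR1F. AHR, the dioxin receptor, read 9.88 in control, 8.76 in the wild-type line and 9.59 in the mutant line (2.17-fold), and TWIST1, a mesenchymal transcription factor next to HDAC9, 8.05, 7.03 and 8.60 (2.03-fold). Wild-type JMJD3 was the low array for both. The whole list of mesenchymal genes, 19 measured, had 14 above control and 4 below, with a median of 0.36. By 1.5-fold 3 of the list were higher and 3 lower. The DNA damage kinase ATR lay in another run of 5 with GK5, XRN1, PLS1 and TRPC1. A run of 4 held ARL6, CRYBG3, RIOX2 and CLDND1, and a further 4 held SENP7, TRMT10C, PCNP and ZBTB11. CRYBG3 was 2.62-fold lower (7.80, 6.41 and 7.59) and SENP7, a SUMO protease, 2.35-fold (7.5, 6.27 and 8.05). The RNA-binding protein HNRNPA2B1 (13.29, 12.48 and 12.92) and the heterochromatin protein CBX3 (12.88, 11.91 and 13.19), which are transcribed from neighbouring starts, were 1.75-fold and 1.96-fold lower with SNX10 and SKAP2. ZEB1, ARHGAP12 and KIF5B formed a run of 3, as did FIGN, GRB14 and COBLL1. A run of 6 was made of ZNF248, ZNF33A, ZNF37A, ZNF37BP, ZNF33B and BMS1, several of which are near copies, so their readings may not be separate. ZNF33A differed by 0.08 with the median of all its probe sets.

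The higher runs were of 3 genes each. The TNF ligands TNFSF9 and CD70 lay beside C3. TNFSF9, which co-stimulates T cells, read 7.59 in control, 8.56 in the wild-type line and 7.92 in the mutant line (1.96-fold). SPINT2 lay between PPP1R14A, an inhibitor of myosin phosphatase, and YIF1B. PPP1R14A read 4.80, 7.53 and 7.17 (at least 4.14-fold). The receptor kinase ERBB2 (8.70, 9.32 and 8.26) lay with PGAP3 and MIEN1, all 1.54-fold to 1.75-fold higher. PROCR, the protein C receptor, was 2.39-fold higher (8.35, 9.61 and 8.63) between EDEM2 and MMP24, and TIMM50 2.04-fold (10.45, 11.48 and 10.80) between SUPT5H and DLL3. The others were ERCC1 with FOSB and RTN2, CCN5 with KCNK15 and its antisense gene, ZNF581 with ZNF580 and CCDC106, the AKR1C genes, and IFITM2, IFITM1 and IFITM3. The last 2 sets are gene copies with similar sequence.

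**Figure D5:**
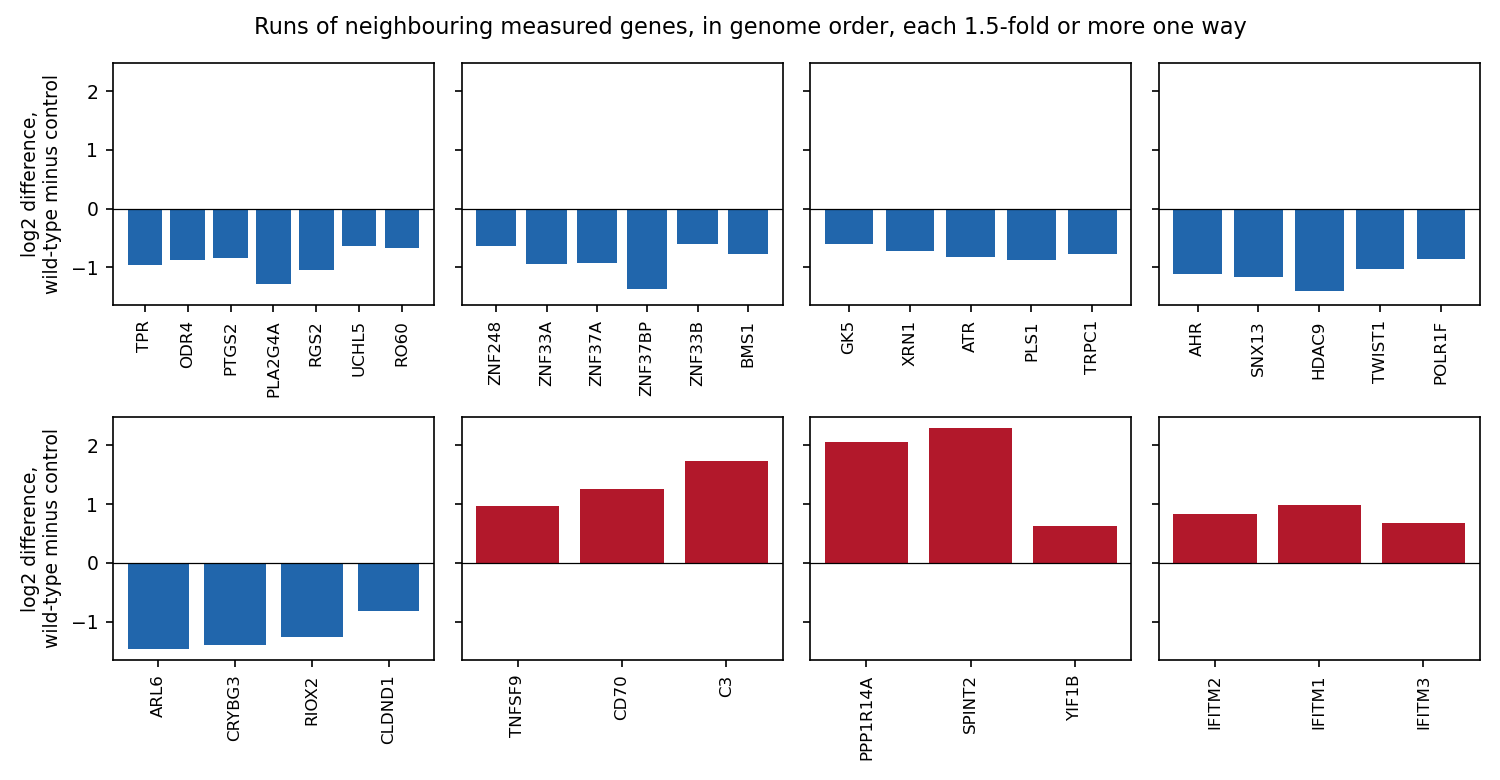
Log2 difference of wild-type JMJD3 minus control (vertical axis) for the genes of 8 of the 49 runs, in genome order within each panel, lower genes in blue and higher genes in red. The first panel is the longest run, 7 lower genes, and ZNF37BP, ARL6 and PPP1R14A are bounds against the floor.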

How the data were processed

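Biotin-labelled RNA of 3 PANC-1 lines was read on Affymetrix arrays, 1 per line. The authors deposited log2 signals of 54613 probe sets, and the submitters' processing notes name MAS5 with no settings. How the arrays were normalized against each other is not given in the sources used, so a difference of 0 does not show equal transcript levels. Names came from the platform annotation: 41091 had 1 symbol, 1801 had several and 11721 were unlisted, and 41037 matched RefSeq (GRCh38.p14), from which spans, gene order and promoter sequences came. Probe sets ending in _s_at or _x_at can be shared with other transcripts.

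The members, gene lists and rules were chosen with earlier results of these data known. Differences were taken on floored log2 values, with no test. Named were KDM6B, up to 6 members of each described group with the largest difference, 30 genes per side with the largest difference among bright genes of one direction, 15 per side at the floor, genes whose probe sets all passed 2-fold, and members of runs. ICAM1 and ACTC1 were named for their promoter. Calculations were tested on simulated data. The 7 alternatives were quantile normalization, a common median for the arrays, a lower and a higher floor (40th and 60th percentile), an added offset instead of a floor, dropping shared probe sets, and taking the median of all probe sets of a gene. Python 3.11.15, numpy 2.4.6 and pandas 2.3.3 were used.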

Additional observations from a re-analysis of the deposited data

Results flagged for a closer look

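Of probe sets without a single gene symbol, which no comparison of named genes used, 210299_s_at read log2 7.39 in control, 9.33 in the wild-type line and 8.95 in the mutant line, 3.84-fold higher with wild-type than in control. Among such probe sets over the floor in both arrays and over log2 7.59 in control or wild-type, it was the largest upward difference. Dimmer probe sets and those with an array at the floor were not ranked. Its gene is unnamed here.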

How the results depend on the processing

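No paired analysis was possible because each line had 1 array and the labels give no replicate numbers. With an added offset instead of a floor, 70 genes were 2-fold higher, 71 were 2-fold lower and 590 were 1.5-fold higher. Taking the median of all probe sets of a gene, 71 genes were 2-fold higher and 113 lower. Without shared probe sets 79 were higher and 153 lower. The remaining settings gave 101 to 133 higher and 138 to 177 lower genes. The median over all genes ranged from 0.010 to 0.070.

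Of 58 groups followed, which do not include the mesenchymal list, these medians moved. With the floor at the 60th percentile keratins were at 0.68 and small heat shock proteins at 1.12. With the median of all probe sets BMP antagonists were at 0.31, laminin chains at 0.24, glutathione transferases at 0.27, small heat shock proteins at 0.25 and tumour suppressors at -0.03. Without shared probe sets the medians were 0.12 for deacetylases, 0.02 for NF-kB regulators, -0.28 for prostaglandin enzymes, 0.00 for the tricarboxylic acid cycle, 0.49 for laminin chains, 0.24 for annexins, 0.25 for glutathione transferases and 0.04 for small heat shock proteins. Scaling, quantile normalization, the lower floor and the offset moved none of the 58.

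Of 540 genes followed, these changed sign with the median over probe sets: ACVR2B (0.01), OTUD4 (0.07), PCGF5 (0.71), PDK3 (0.36), THBS1 (-0.04), WWTR1 (0.26) and ZNF33A (0.08). Without shared probe sets OTUD4 (0.15) and THBS1 (-0.04) did. Only genes 2-fold different in the main setting could be counted as weaker, while the totals also hold genes that differed by less. A smaller difference that fell under 1.5-fold was not counted. A 2-fold difference fell under 2-fold in 56 of the 497 genes that kept a value with the median over probe sets. It did so in 10 of 393 without shared probe sets and 29 of 530 with the higher floor. Of all 540, it did so in 53 with the offset, 13 with quantile normalization and 6 with scaling. The cause was not tested. With 1 array per line, no setting shows how far a second culture would differ.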

Other observations

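Unnamed probe sets were 2-fold lower more often than named genes, but the units differ. The named side counts only the brightest probe set of each gene, and the unnamed side counts every measured probe set. Of 3789 measured among 11721 unnamed probe sets, 155 were 2-fold lower with wild-type JMJD3 and 19 higher, against 166 and 121 among the 12697 named genes. The probe sets named next were ranked among those over the floor in both arrays and over log2 7.59 in control or wild-type. Of these the lowest were 235716_at (log2 8.73 in control, 6.72 with wild-type JMJD3, 8.14 with the mutant, 4.03-fold), 226663_at (8.85, 6.94 and 8.11, 3.76-fold) and 205185_at (11.79, 10.05 and 12.66, 3.34-fold). After 210299_s_at the highest were 205157_s_at (9.64, 11.34 and 10.38, 3.25-fold) and 201540_at (10.08, 11.77 and 11.47, 3.23-fold). Probe sets listed for several genes gave 4 higher and 13 lower of 1149 measured. The difference between named genes and unnamed probe sets was not tested, and no count over all named probe sets was made.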
